A study of Mus musculus with 8 samples.

Results

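The interferon-inducible p200 genes, also called the Ifi200 family, lie side by side on mouse chromosome 1. Across 8 tumours 7 of them were followed: Ifi209, Ifi203, Ifi204, Ifi207, Ifi213, Mndal and Aim2. They make up 7 of the 14 p200 genes that GENCODE M21 annotates between Aim2 and Ifi205 (GRCm38, chr1:173350879-174031810, 681 kb), and 7 of the 41214 gene identifiers in the count files. The family was chosen by the measured level of Ifi209, which was lower in deltaPOZ tumours of both lineages. For that reason the genotype differences of the members are given as a description, without a test, and only the difference between lineages and the difference of the genotype effect between lineages were tested. All 7 members passed the filter on low counts.

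Messenger RNA came from spleen tumours of C57Bl6 mice, either B cell or CD4+ T cell tumours, each with Miz1 wt or Miz1 deltaPOZ. Miz1, the product of Zbtb17, is a zinc finger transcription factor that partners with Myc, and its POZ domain mediates contacts between Miz1 molecules. Each lineage and genotype was represented by 2 tumours, every one from its own mouse. The names of the deposited files carry the tag Notch for all T libraries and the tag ENU for the T deltaPOZ libraries only. They also give different run numbers to B and T, so lineage and run cannot be told apart, nor can genotype and the ENU tag within T. How the tumours were induced and in which cells the POZ domain was removed is not given in the labels.

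Proteins of the p200 family pair a pyrin domain, which binds other pyrin domains, with a HIN domain, which binds DNA, though some members carry only a part of this plan. Aim2 detects DNA in the cytosol and assembles an inflammasome with the adaptor Pycard and caspase 1. Others, such as the protein of Ifi204, act in the nucleus and in DNA sensing upstream of type I interferon. Interferon raises many of the genes through the interferon-stimulated response element (ISRE), a promoter sequence with paired GAAA half-sites that interferon regulatory factors such as Irf9 bind.

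Because the family is known for this element, the RefSeq promoters (GRCm38.p6, 250 bases before to 50 after each start) were searched on both strands for the ISRE core GAAANNGAAA. Entries were found for 6 of the 7 members and for 12 of the 14 p200 genes. The core occurred in 9 of these 12 genes, where a gene counts if any of its promoters matched (14 promoters in all). Over all 32851 promoters, of 27025 genes, 3.44% held the core, a share per promoter and not per gene. Among members it occurred in Ifi213, Ifi207, Mndal and Ifi203, and not in Ifi209 or Aim2. In 7 p200 genes the match was the same 10 bases, GAAATCGAAA, which occurred in 16 (0.0487%) of all promoters. They were picked as the commonest match within the p200 promoters, and the 16 include the 7 p200 promoters that hold them. Some p200 genes also share the sequence around the match, with 60 of 60 bases identical between Ifi213 and Ifi208. The share is therefore no test of these 10 bases. Ifi209 held a stretch that differs from these bases by 1 substitution, G1T (position counted from the first base of the stretch), and starts 79 bases before its start site. Allowing 1 mismatch, 1.38% of all promoters held the stretch. Its nearest relative in this window was Ifi214, with 54 of 60 bases identical and an intact match at the same distance. The windows below show these genes on the transcribed strand, with the 10-base stretch in capitals.

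Ifi209 (chr1:173630755-173630814, strand +): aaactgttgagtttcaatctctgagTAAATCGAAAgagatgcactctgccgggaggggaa
Ifi214 (chr1:173536002-173536061, strand -): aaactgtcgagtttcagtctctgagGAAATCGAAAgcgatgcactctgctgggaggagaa
Ifi213 (chr1:173599311-173599370, strand -): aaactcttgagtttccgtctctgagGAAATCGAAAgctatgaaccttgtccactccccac
Ifi207 (chr1:173741816-173741875, strand -): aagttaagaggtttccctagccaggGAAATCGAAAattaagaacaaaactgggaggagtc
Mndal (chr1:173880189-173880248, strand -): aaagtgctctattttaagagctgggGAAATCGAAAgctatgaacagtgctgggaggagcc

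The window of Ifi203 (chr1:173942493-173942552) is identical to that of Mndal over all 60 bases, from a second Ifi203 start. The other Ifi203 start and the other Mndal start lacked the 10 bases. The whole Ifi209 promoter (chr1:173630609-173630908, strand +) is shown because the family was chosen on this gene:

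Ifi209 promoter: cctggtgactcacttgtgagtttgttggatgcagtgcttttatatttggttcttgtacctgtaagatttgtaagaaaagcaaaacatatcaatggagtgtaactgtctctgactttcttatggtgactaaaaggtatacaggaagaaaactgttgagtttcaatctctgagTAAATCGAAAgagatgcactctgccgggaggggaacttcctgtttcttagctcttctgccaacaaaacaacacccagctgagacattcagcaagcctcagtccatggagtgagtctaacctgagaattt

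A match is a description of letters and not of binding. The interferon-gamma motif TTCNNNGAA occurred in 8.3% of all promoters and, among p200 genes, in Ifi202b alone, which had no ISRE core, while the Myc E-box CACGTG (7.15% of all promoters) occurred in none of the 12.

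Libraries held 44330101 to 58271208 counts in genes. Levels are given in CPM, the counts of a gene relative to the total of its library, scaled by trimmed mean of M values, and n = 2 for every group. Zbtb17 itself read 48.0 to 66.1 CPM in wt and 49.4 to 59.1 CPM in deltaPOZ among B tumours, and 42.3 to 49.6 and 36.9 to 40.1 CPM among T tumours. A count over the whole gene does not show the removal of a single domain. Lineage markers followed the labels, with 12 B cell markers summing to 2022 to 3464 CPM in B and 26.9 to 143 in T libraries, and Cd3e at 0.14 to 0.332 in B and 78.5 to 93.4 in T. In bulk samples such as these, fewer cells of a type and less RNA per cell cannot be told apart. Sex moved with genotype in B, where Xist, expressed from the inactive X chromosome, read 975 and 1477 CPM in wt and 0.936 and 0.757 CPM in deltaPOZ, and the part of sex in the B differences cannot be told apart from that of genotype. All 4 T libraries held both Xist and the Y-linked Ddx3y, in unlike amounts. T wt 1 read 1246 CPM for Xist and 22.5 CPM for Ddx3y, and the other T libraries 11.8 to 35.4 and 142 to 184 CPM. The part of sex in the T differences was not tested. Libraries B wt 2, T wt 1 and T deltaPOZ 2 stood apart on markers of other cells or on the number of genes with a count (18339 to 21078 in the other 7 libraries, 25387 in T deltaPOZ 2).

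Reads shared between family members limit each count. Of all stretches of 100 bases in the annotated transcripts, 16.9% of those of Ifi209 recur in another gene (Ifi214), as do 10.7% of those of Ifi204, 6.4% of Mndal, 3.3% of Ifi213, 2.8% of Ifi203, 0.8% of Ifi207 and none of Aim2. At 50 bases the shares were higher, with 33.7% for Ifi209, 20.0% for Ifi204, 19.6% for Mndal and 15.6% for Ifi213. Ifi203 had 12.2%, Ifi207 7.3% and Aim2 0.6%. Reads from such stretches were not assigned to a single gene if counting required unique alignments, and the rule used is not given in the labels or processing notes. In all libraries the files record more alignments that were not unique than counts in genes, from 136 to 213 per 100 gene counts, with the highest value in T deltaPOZ 2. Among the other p200 genes the shared part at 100 bases reached 56.9% in Ifi211. Annotated exons of Mndal and Ifi203 overlap by 37 bases, and the annotated span of Aim2 overlaps Cadm3 on the opposite strand.

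Ifi209 (ENSMUSG00000043263, chr1:173630917-173647928) was the most abundant p200 gene of the B wt tumours. It read 310 and 301 CPM in the wt and 79.7 and 81.9 CPM in the deltaPOZ libraries of B tumours, with group means of 306 ± 6.1 and 80.8 ± 1.6 (SD, n = 2). In T tumours it read 25.7 and 29.1 CPM in wt and 13.8 and 14.9 CPM in deltaPOZ, with means of 27.4 ± 2.4 and 14.4 ± 0.77. Groups ran in the order of B wt, then B deltaPOZ, then T wt, then T deltaPOZ, and no neighbours in this order overlapped. The log2 fold change of deltaPOZ over wt was -1.92 (SE 0.16) for B tumours and -0.93 (SE 0.16) for T tumours, with a mean of -1.42 (SE 0.11). These values chose the family and are not tested here. B cell markers moved with genotype in B tumours, where the 12 markers summed to 3464 and 2642 CPM in wt and 2022 and 2030 CPM in deltaPOZ and 1 of 12 was higher in deltaPOZ, and their part in the Ifi209 difference was not tested. T cell markers moved with genotype in T tumours, where the 13 markers summed to 4463 and 5317 CPM in wt and 3096 and 3813 CPM in deltaPOZ. Of these 13 markers 3 were higher in T deltaPOZ, and their part in the Ifi209 difference was not tested either. Without any 1 library, and under every other setting tried, the Ifi209 log2 fold change lay between -1.94 and -1.85 in B. In T it lay between -1.09 and -0.83. Because the gene was chosen on these differences, the narrow ranges are a description and no support for them. Groups with deltaPOZ lower and no overlap in either lineage were found for 4.42% of the 16456 tested genes.

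The place of Ifi209 within the family differed between the groups. Per kilobase of annotated exon, Ifi209 stood at 86.2 CPM in B wt, above Mndal (29.7), Ifi203 (16.4) and Aim2 (9.79). In B deltaPOZ it stood at 22.8 CPM per kilobase, beside 25.4 for Mndal, 11.4 for Aim2 and 11 for Ifi203. The length joins the exons of all annotated transcripts, 6706 bases for Ifi203, 3628 for Mndal and 3547 for Ifi209. Their longest single transcripts have 3754, 2026 and 3439 bases, so the order of the genes can change with the length used. In T wt the order on this scale was Mndal (17.6), Ifi203 (9.31) and Ifi209 (7.71), and the means of T deltaPOZ had the same order (12.3, 5.47 and 4.05). The T deltaPOZ libraries differed in this. Before scaling by length, Ifi203 read 10.1 CPM beside 13.8 for Ifi209 in T deltaPOZ 1, and 63.3 beside 14.9 in T deltaPOZ 2. Of the summed CPM of the 14 p200 genes Ifi209 supplied 55.6 and 46.8% in wt and 23.9 and 26.7% in deltaPOZ B tumours, and 13.7 and 16.6% in wt and 21.7 and 8.05% in deltaPOZ T tumours. Without Ifi209 the sum in B tumours was 247 and 343 CPM with wt and 253 and 224 CPM with deltaPOZ, ranges that overlap.

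**Figure D1:**
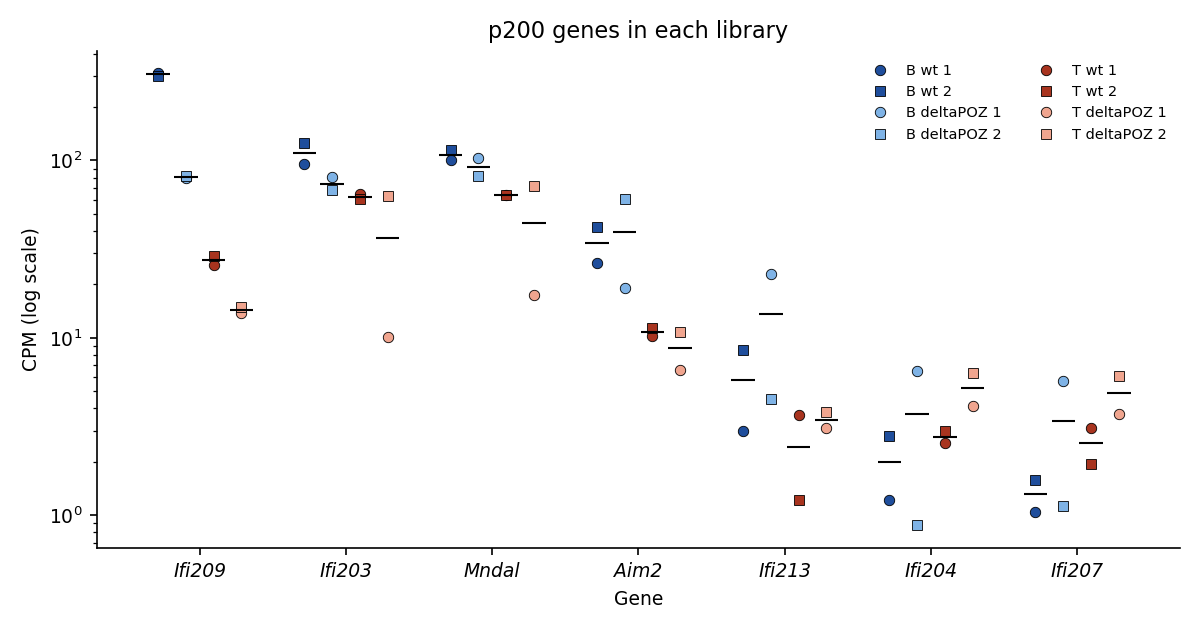
CPM (log axis) of the 7 members in each of the 8 libraries, with circles for replicate 1, squares for replicate 2 and bars for the group mean (n = 2). Ifi209 falls into 4 separate pairs from 301 to 310 CPM in B wt down to 13.8 to 14.9 in T deltaPOZ, while Ifi203 and Mndal have 1 low library, T deltaPOZ 1.

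Ifi203 and Mndal, whose annotated spans overlap at the distal end of the cluster, showed nearly the same profile. Ifi203 encodes a HIN domain protein of the nucleus (ENSMUSG00000039997, chr1:173920407-173942672), and Mndal is named for its likeness to the human myeloid nuclear differentiation antigen (ENSMUSG00000090272, chr1:173849126-173942491). Ifi203 read 95.8 and 125 CPM in wt and 80.3 and 67.8 CPM in deltaPOZ among B tumours, and 64.4 and 60.5 CPM in wt and 10.1 and 63.3 CPM in deltaPOZ among T tumours. B deltaPOZ was below B wt without overlap, while the T groups overlapped because only T deltaPOZ 1 was low. Mndal read 101 and 114 CPM in wt and 103 and 81.6 CPM in deltaPOZ among B tumours, and 63.9 and 63.8 CPM in wt and 17.4 and 71.5 CPM in deltaPOZ among T tumours. Its genotype groups overlapped in both lineages, and T deltaPOZ 1 was again the low library. Pearson's r between the 2 genes over the 8 libraries, on log2 CPM, was 0.99, and it was also 0.99 after subtraction of the lineage means. It describes genes that share 37 exon bases and some sequence, and both were low in T deltaPOZ 1.

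The T difference of both genes rested on that library. The log2 fold change in T was -0.77 (SE 0.70) for Ifi203 and -0.52 (SE 0.56) for Mndal, and without T deltaPOZ 1 it was 0.01 and 0.16. Without T deltaPOZ 2 it was -2.63 and -1.87. In B it was -0.57 (SE 0.70) and -0.22 (SE 0.56). Ifi209 did not share the drop of T deltaPOZ 1, where it stood at 13.8 CPM beside 14.9 in T deltaPOZ 2.

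Aim2, the inflammasome sensor (ENSMUSG00000037860, chr1:173350879-173466040), read 26.3 and 42.2 CPM in wt and 19.0 and 60.5 CPM in deltaPOZ among B tumours, and 10.3 and 11.3 CPM in wt and 6.62 and 10.8 CPM in deltaPOZ among T tumours. The B deltaPOZ libraries lay on either side of B wt, and the T groups overlapped. Between genotypes Aim2 differed by a log2 fold change of 0.22 (SE 0.55) in B, which became -0.85 without B deltaPOZ 2 and -0.08 without B wt 1, and -0.31 (SE 0.55) in T. In B deltaPOZ, Aim2 was higher in library 2 whereas Ifi213, Ifi204 and Ifi207 were higher in library 1.

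Ifi213, Ifi204 and Ifi207 were the less abundant members, and within lineages they varied together and not with Ifi209. Ifi213 (ENSMUSG00000073491, chr1:173566283-173599274) read 2.98 and 8.56 CPM in wt and 22.8 and 4.52 CPM in deltaPOZ among B tumours, and 3.66 and 1.21 CPM in wt and 3.08 and 3.80 CPM in deltaPOZ among T tumours. Ifi204, a nuclear DNA sensor gene (ENSMUSG00000073489, chr1:173747293-173766943), read 1.21 and 2.80 CPM in wt and 6.53 and 0.877 CPM in deltaPOZ among B tumours, and 2.56 and 2.97 CPM in wt and 4.10 and 6.36 CPM in deltaPOZ among T tumours. Ifi207 (ENSMUSG00000073490, chr1:173723427-173741747) read 1.04 and 1.58 CPM in wt and 5.71 and 1.12 CPM in deltaPOZ among B tumours, and 3.12 and 1.95 CPM in wt and 3.74 and 6.08 CPM in deltaPOZ among T tumours. All 3 were highest in B deltaPOZ 1 among the B libraries, and Ifi204 and Ifi207 were higher in T deltaPOZ than in T wt without overlap. After subtraction of the lineage means, Pearson's r between them was 0.82 to 0.92 over the 8 libraries, and with Ifi209 it was -0.58 to -0.30. This grouping was made after the values were seen and is not tested.

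The genotype difference of these 3 genes in B rested on B deltaPOZ 1. The log2 fold change in B was 1.25 (SE 0.91) for Ifi213, 0.88 (SE 0.90) for Ifi204 and 1.38 (SE 0.79) for Ifi207. Without B deltaPOZ 1 it was -0.30, -1.14 and -0.18. In T it was 0.50 (SE 0.90), 0.92 (SE 0.90) and 0.95 (SE 0.78).

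Markers of macrophages, cells in which p200 genes are also active, differed between the same libraries. The summed CPM of 12 macrophage markers came to 120 and 801 for wt and 488 and 96.8 for deltaPOZ among B tumours, and to 229 and 305 for wt and 381 and 451 for deltaPOZ among T tumours, and no marker was at 0 in any library. Of the 12 markers, 8 had a positive genotype difference in B and 12 in T. Lyz2, a lysozyme gene that neutrophils also express, supplied 633 of the 801 CPM in B wt 2. Without it the other 11 markers summed to 53.8 and 168 CPM for wt and 344 and 64 CPM for deltaPOZ among B tumours, and to 182 and 288 CPM for wt and 291 and 376 CPM for deltaPOZ among T tumours, so that B deltaPOZ 1 was the highest B library. This sum was added after the values were seen. Over 11 neutrophil markers the sum came to 125 and 744 CPM for wt and 55.6 and 60.6 CPM for deltaPOZ among B tumours, and to 878 and 55.5 CPM for wt and 440 and 114 CPM for deltaPOZ among T tumours. Dendritic markers summed to 23.6 to 57.5 CPM over all 8 libraries. Some interferon-stimulated genes were also highest in B deltaPOZ 1 among the B libraries. Ifit1 read 0.797 and 1.8 CPM in wt and 10.8 and 1.12 CPM in deltaPOZ B tumours. In T tumours it read 20.6 and 12 CPM in wt and 11.1 and 9.91 CPM in deltaPOZ. Others, such as Ifi47 (63.3 and 52.9 CPM in wt, 33.2 and 28.3 in deltaPOZ), were not highest there. The part of these cells, or of interferon, in the levels of Ifi204, Ifi207 and Ifi213 was not tested.

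**Figure D2:**
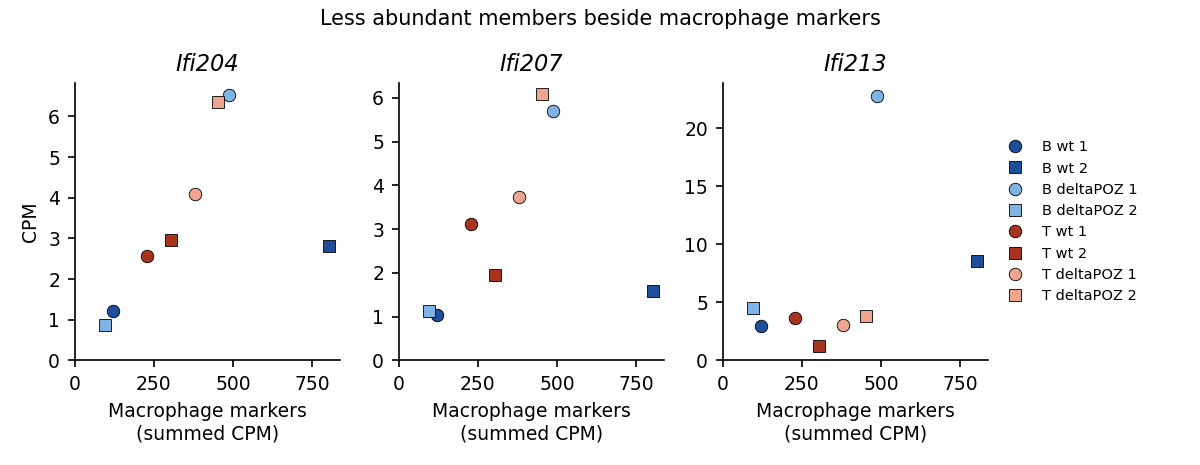
CPM of Ifi204, Ifi207 and Ifi213 against the summed CPM of 12 macrophage markers, 1 point per library. B deltaPOZ 1, at a marker sum of 488, is the highest library for Ifi204 (6.53 CPM) and Ifi213 (22.8 CPM), and B wt 2 has the highest sum, 801, of which Lyz2 supplies 633.

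Compared by genotype, the 7 members had no common direction. In B 4 had positive and 3 negative differences (median 0.22, against -0.01 over all tested genes), and in T 3 and 4 (median -0.31, against 0). Members that stood lower in B deltaPOZ without overlap numbered 2 of 7, Ifi209 and Ifi203, where 19.1% of all tested genes did so. In T 1 of 7 stood lower (Ifi209) where 17.0% of all genes did, and 2 of 7 higher (Ifi204 and Ifi207) where 15.4% did. Over all genes edgeR called 0.00608% in B, 0% in T and 0% in the mean of both, and since the family was chosen from these contrasts nothing is read from the members' counts.

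The remaining p200 genes were not used to choose the family by level, and 6 of 7 passed the filter. Ifi208 read 4.69 and 29.2 CPM in wt and 4.31 and 3.59 CPM in deltaPOZ among B tumours, and 6.87 and 1.66 CPM in wt and 1.32 and 2.77 CPM in deltaPOZ among T tumours. Its genotype difference did not pass in B (-2.10 on the log2 scale, SE 0.99, edgeR adjusted p = 0.45), and B wt 2 and T wt 1 were the high libraries. Ifi206 was high in the same libraries, at 8.76 CPM in B wt 2 and 4.05 in T wt 1 against 0.751 to 2.52 in the other 6. Ifi214, which shares sequence with Ifi209, read 11 and 8.90 CPM in wt and 6.73 and 2.17 CPM in deltaPOZ among B tumours, and at most 1 CPM in each T library. Between genotypes Ifi214 did not pass in B (-1.16, SE 0.62, edgeR adjusted p = 0.493) or in T (0.16, SE 0.62, edgeR adjusted p = 1). Ifi205 (0.0797 to 1.74 CPM), Ifi211 (0.0399 to 1.67) and the pseudogene Ifi203-ps (0.019 to 0.311) were near the limit of detection. Ifi202b had 1 count in T deltaPOZ 2 and 0 in the other 7 libraries, where a count of 0 allows a level of up to 0.0523 to 0.0677 CPM (3 counts, counting error only). None of the 6 was called in B or in T by edgeR, DESeq2 or limma-voom, and 0 had an unadjusted p under 0.05 by edgeR, while edgeR with no filter on low counts called 1 of the other p200 genes in B.

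**Figure D3:**
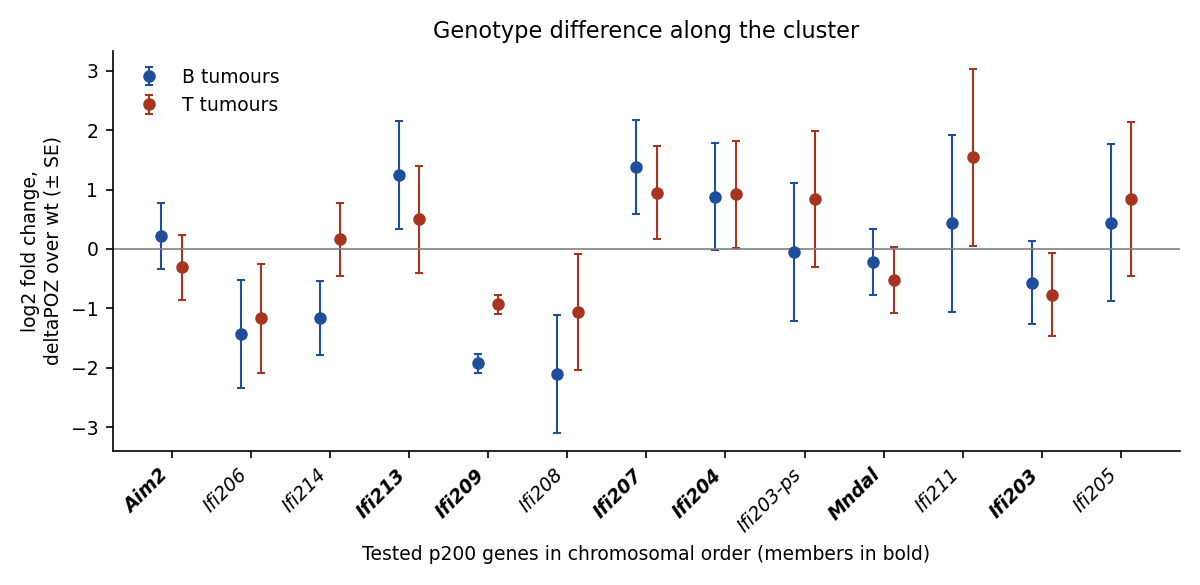
Log2 fold change of deltaPOZ over wt (± SE) in B and T tumours for the 13 tested p200 genes in chromosomal order, with members in bold. Ifi209 has the shortest error bars, at -1.92 in B and -0.93 in T, and genes next to it lie on both sides of 0.

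Of the 17 tested genes within 1 Mb of the cluster, 0 were called in B or T by edgeR. At an unadjusted p under 0.05 there were 5 in B, where 1996 of all 16456 tested genes were, and 1 in T, where 436 were. DESeq2 called 2 in B and 0 in T, limma-voom 0 in each, and edgeR with no filter on low counts 6 in B. The median log2 fold change of the 17 was -1.30 in B and 0.21 in T, against -0.01 and 0 over all tested genes. Pigm, an enzyme of glycolipid anchor synthesis, stood at 82.2 to 116 CPM in all libraries. Tagln2, an actin-binding protein gene, stood at 154 to 219 CPM in B and 61.2 to 98.1 in T, with log2 fold changes of -0.31 in B and 0.65 in T. Fcrl6 was counted only in B wt (13.3 and 4.27 CPM), and Fmn2 at 7.31 and 2.38 CPM in B wt against 0.039 and 0.518 in B deltaPOZ. Ackr1, a surface gene of red cells, stood at 0 to 0.245 CPM in B and 4.70 to 16.4 in T. Dusp23, Slamf8, Slamf9, Igsf9 and Kcnj10 stayed at or under 7.76 CPM in every library.

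The lineages were compared over both genotypes, a contrast that did not serve to choose the family. Ifi209 and Aim2 fell in T relative to B tumours. Ifi209 was lower by a log2 fold change of -2.99 (SE 0.12), a 7.92-fold higher level in B, with an edgeR adjusted p of 0.000115, and every T library lay below every B library. It passed in all 15 other fits, with an edgeR, DESeq2 or limma-voom adjusted p of 0.00832 or less. Aim2 was lower by -1.93 (SE 0.40, edgeR adjusted p = 0.0117), also without overlap. It passed without each library in turn (0.00471 to 0.0472) but not without the 3 libraries that stood apart (0.141).

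By edgeR with all 8 libraries and the filter on low counts, the other 5 members did not pass between lineages. For 4 of them the call changed in other fits. Ifi203 and Mndal were lower in T without overlap, with log2 fold changes of -0.92 (SE 0.50, edgeR adjusted p = 0.193) and -0.90 (SE 0.40, edgeR adjusted p = 0.12), and each passed without T deltaPOZ 2 (edgeR adjusted p = 0.0037 and 0.00453), without the 3 libraries that stood apart (-1.79, 0.0265 and -1.56, 0.0342) and with no filter on low counts (6.66e-05 and 6.87e-05). Ifi213 had a value of -1.62 (SE 0.65, edgeR adjusted p = 0.0941) and passed by DESeq2 (0.0252), with no filter (0.000771) and without B deltaPOZ 2 (-1.99, edgeR adjusted p = 0.0431). Ifi204 (0.48, SE 0.63) and Ifi207 (0.74, SE 0.55) had positive values (edgeR adjusted p = 0.587 and 0.334), and Ifi207 passed without B deltaPOZ 1 (1.52, edgeR adjusted p = 0.0495). Thus 2 of 7 members were called, both lower, where edgeR called 35.3% of all tested genes, 16.0% lower and 19.3% higher. DESeq2 called 3 members and limma-voom 2, and edgeR called 4 without T deltaPOZ 2, 3 without the 3 libraries that stood apart and 5 with no filter. Members with no overlap between lineages and T lower numbered 4 of 7, against 17.0% of all genes. Around the cluster, 6 of the 17 tested genes within 1 Mb were called lower in T by edgeR and 2 higher. Their median log2 fold change was -0.69, against -0.92 for the members and 0.05 over all genes. Among the remaining p200 genes 1 of 6 was called, Ifi214, lower in T (-3.02, SE 0.47, edgeR adjusted p = 0.00448, and 0.0871 without the 3 libraries that stood apart).

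Whether the genotype difference depends on lineage was tested for the 6 members other than Ifi209. By edgeR, DESeq2 and limma-voom 0 of 6 passed, and 0 had an unadjusted p under 0.05 by edgeR (smallest adjusted p = 0.965, Aim2, difference T minus B -0.53, SE 0.78). Over all genes edgeR called 0%. For Ifi209 the difference was 0.99 (SE 0.22), given as a description, from -1.92 in B to -0.93 in T.

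Genes that work with the family were also read. In T against B tumours, 25 of 51 interferon-stimulated genes were called higher, where 19.3% of all tested genes were, and 1 lower, where 16.0% were (Bst2, a membrane protein that holds back budding viruses, log2 fold change -0.84), with a median of 0.90 against 0.05 over all genes. Rsad2, the antiviral protein viperin, stood at 0.797 to 9.91 CPM in B and 186 to 492 in T (6.89, SE 0.53, edgeR adjusted p = 0.000506). Isg15, the ubiquitin-like modifier, stood at 0.247 to 2.28 CPM in B and 28.1 to 60.6 in T (5.45, SE 0.62, edgeR adjusted p = 0.00165). Igtp, an immunity GTPase, stood at 7.40 to 12.4 CPM in B and 50.2 to 103 in T. Ifi209 and Aim2 had the opposite direction to these 25 genes. Markers of other cells also differed between lineages, with 11 red cell markers summing to 716 to 2141 CPM in B and 5735 to 26117 in T libraries, and 8 NK cell markers to 3.13 to 31.5 and 153 to 393, and their part in these counts was not tested. Of the 51 genes 26 were called in either direction, which became 17 without B wt 2 or without T wt 1, and 6 without the 3 libraries that stood apart.

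The signalling genes upstream held calls in both directions, where 19.3% of all tested genes were called higher and 16.0% lower. Of 20 interferon signalling genes 8 were called higher and 4 lower in T, with the ISRE-binding factor gene Irf9 at 23.6 to 28.8 CPM in B and 62.6 to 89.7 in T (1.55, SE 0.14, edgeR adjusted p = 0.000747). The interferon regulatory factor genes Irf8 (106 to 146 CPM in B, 14.4 to 32.3 in T) and Irf5 (51.7 to 120 against 3.32 to 9.31) were lower. Without the 3 libraries that stood apart 5 genes were called in place of 12. Of 23 tested genes of cytosolic DNA sensing 8 were called higher and 5 lower. Tmem173, which encodes the adaptor STING, was lower in T (68 to 91.9 against 17.8 to 34.3 CPM; edgeR adjusted p = 0.00428), and Trim56, which acts on STING, was higher (1.80, SE 0.13, edgeR adjusted p = 0.000384). Cgas, the enzyme that makes the STING ligand, did not pass (-0.14, SE 0.39, edgeR adjusted p = 0.799). Without T wt 1 or T deltaPOZ 2 the 13 calls became 8 and 7, and 4 without the 3 libraries that stood apart.

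Of 18 inflammasome genes, partners of Aim2 among them, 4 were called, where 35.3% of all tested genes were. Of these 1 was higher in T, the adaptor gene Pycard (24.1 to 34.9 CPM in B, 49.8 to 83.0 in T; edgeR adjusted p = 0.0066), and 3 lower: Nlrc4, Txnip and Naip2. Without the 3 libraries that stood apart 2 were called. Nlrc4, another inflammasome core protein gene, stood at 12.4 to 50.2 CPM in B and 1.01 to 3.08 in T (-3.91, SE 0.52, edgeR adjusted p = 0.00258). Casp1 was at 0.683 to 8.67 CPM over all libraries and Gsdmd, the pore-forming effector, at 17.6 to 29.3, and neither passed.

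**Figure D4:**
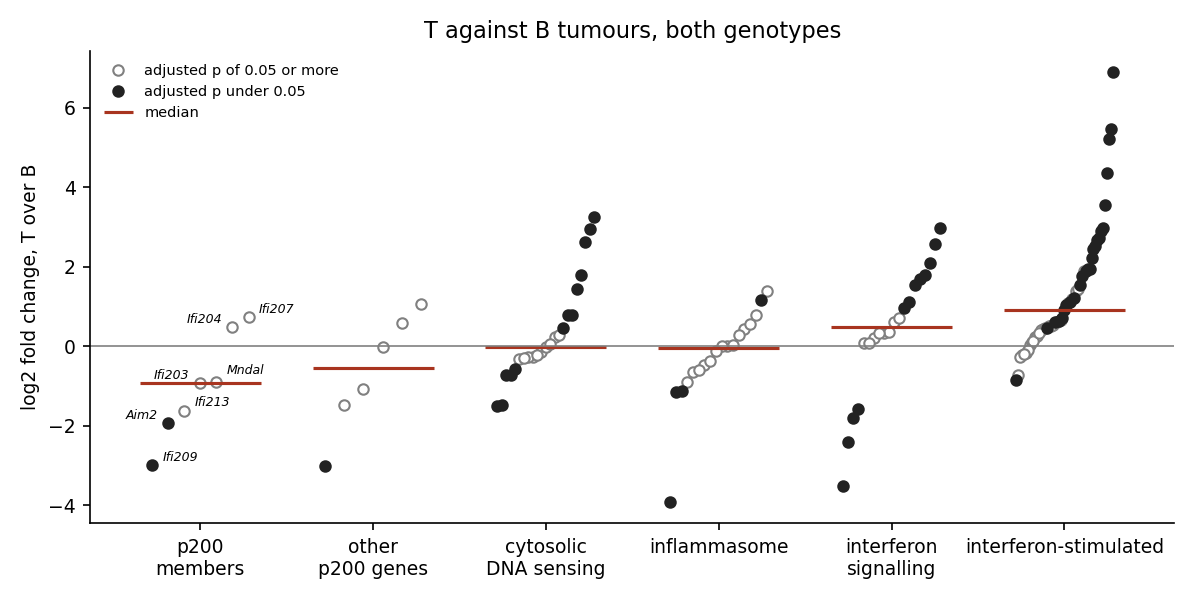
Log2 fold change of T over B tumours for the members, the other tested p200 genes and 4 lists of related genes, with filled points for an adjusted p under 0.05 and bars for the median. Of the members Ifi209 (-2.99) and Aim2 (-1.93) are filled, while the interferon-stimulated genes reach up to 6.89 with a median of 0.90.

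Between genotypes none of these lists moved past the threshold by edgeR. Over the 4 lists 0 genes were called in B and 0 in T, DESeq2 called 5 and 0, and limma-voom 0 and 0. In B, 35 of 51 interferon-stimulated genes had positive differences (median 0.35), where 7921 of all 16456 tested genes did (median -0.01). At an unadjusted p under 0.05 by edgeR, 9 were higher and 2 lower, where 934 and 1062 of all genes were. Some of the 35 were high in B deltaPOZ 1 alone, such as Ifit1 (0.797 and 1.8 CPM in wt, 10.8 and 1.12 in deltaPOZ). Others, such as Rsad2, were higher in each B deltaPOZ library (0.797 and 1.33 CPM in wt, 9.91 and 3.65 in deltaPOZ). In T 44 of 51 had negative ones (median -0.31, 0 at an unadjusted p under 0.05), where 8232 of all genes did (median 0, 436 at an unadjusted p under 0.05). With no filter on low counts edgeR called 13 genes of the 4 lists in B. Ifi209 was lower in deltaPOZ tumours of both lineages. Ifi47, an interferon-inducible GTPase gene, resembled it in direction, with 63.3 and 52.9 CPM in wt and 33.2 and 28.3 CPM in deltaPOZ B tumours, and 110 and 102 CPM in wt and 71.9 and 83.7 CPM in deltaPOZ T tumours (edgeR adjusted p = 0.218 in B and 1 in T). Irf9 did not pass in B (0.05, SE 0.19, edgeR adjusted p = 0.948) or in T (-0.38, SE 0.19, edgeR adjusted p = 1).

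The genes with the profile most like Ifi209 were sought among 10175 tested genes with a mean of at least 5 CPM, by Pearson's r of log2 CPM over the 8 libraries. The 5 nearest were Isoc1 (0.986), Lyl1 (0.979), Gna12 (0.976), Fam20b (0.974) and Trabd (0.974), and all 5 were lower in T than in B tumours (log2 fold changes of -1.44 to -0.57). Lyl1, a transcription factor gene of early blood cells, read 111 and 125 CPM in wt and 53.7 and 68.8 CPM in deltaPOZ B tumours, and 24.0 to 39.7 over the T libraries. After subtraction of lineage means the 5 nearest were Tnfaip3 (0.996), Mmadhc (0.995), Tonsl (0.980), Plscr3 (0.979) and Arl6ip1 (0.972). Tnfaip3, an inhibitor of NF-kB signalling, read 14.7 and 14.2 CPM in wt and 7.74 and 7.83 CPM in deltaPOZ among B tumours, and 47.9 and 50.2 CPM in wt and 38.4 and 38.3 CPM in deltaPOZ among T tumours. Mmadhc, of vitamin B12 metabolism, read 58.8 and 54.2 CPM in wt and 19.7 and 21.6 CPM in deltaPOZ among B tumours, and 51.2 and 60.1 CPM in wt and 31.7 and 37.3 CPM in deltaPOZ among T tumours. These genes were picked as the highest of 10175 values over 8 libraries and carry no test.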

How the data were processed

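Messenger RNA of 8 mouse spleen tumours was measured in 4 groups of 2. Per the labels' protocols, a MagMax-96 kit gave the RNA and TruSeq Stranded mRNA the libraries. The authors deposited raw counts per Ensembl gene. Per the submitters' processing notes, TopHat2 2.0.10, SAMtools, HTSeq and DESeq were used with mm10/GRCm38; the annotation release, strand setting and treatment of multiple alignments are not given there. No-feature (30.4 to 39.3%) and ambiguous counts (0.471 to 0.554% of gene, no-feature and ambiguous counts) were left out. Names, positions and exon lengths came from GENCODE M21, which held 97.9% of the identifiers.

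Counts were fitted in edgeR 4.0.16 (R 4.3.3) with glmQLFit and glmQLFTest after trimmed mean of M values scaling and filterByExpr (16456 of 27639 genes with a count), with all 8 libraries, 1 mean per group and 4 residual degrees of freedom. The Benjamini-Hochberg adjustment ran over every tested gene (threshold 0.05). Replicate numbers follow record order and pair nothing; p-values measure the spread between tumours. DESeq2 1.42.0, limma 3.58.1, other filters and scalings, and fits without each library were alternatives. In simulated counts for T against B over 16456 genes, edgeR recovered 39.7% of 58 genes changed 2-fold and 94.4% of 72 changed 4-fold. For the difference of genotype effects it recovered 3.33, 31.9 and 73.2% at 2, 4 and 8-fold. Only genes with a mean above 5 CPM were changed, so these shares do not cover Ifi204 and Ifi207 (means of 3.43 and 3.04 CPM). Far fewer genes were changed than the 35.3% called for T against B in the data.

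Members and lists were chosen with earlier results of these data known. Named genes are the members, the other p200 genes, neighbours with a mean of at least 1 CPM, Zbtb17, up to 4 genes per list with the smallest p or called, and the 5 genes most like Ifi209 by each measure. Cd3e, Xist, Ddx3y, Cgas, Casp1, Gsdmd and the Irf9, Ifi47, Ifit1 and Rsad2 genotype values were added after their values were seen. Some genes are not reported here. T cell markers, read as a check, summed to 108 to 217 CPM in B and 3096 to 5317 in T libraries.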

Additional observations from a re-analysis of the deposited data

How the results depend on the processing

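Ifi209 kept its direction and call between lineages in all 15 alternatives. Members called in T against B numbered 5 with no filter on low counts, and 2 to 4 without 1 library. Genes called without 1 library ranged from 7 to 11 for DNA sensing and from 17 to 26 for interferon-stimulated genes. Without the 3 libraries that stood apart (chosen after the data were seen) they were 4 (DNA sensing), 2 (inflammasome), 5 (interferon signalling) and 6 (interferon-stimulated); that fit has fewer samples. In B, DESeq2 called 5 genes of the 4 lists and the fit with no filter 13. The cause was not tested.

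Over all genes the count in B was 1 by edgeR, 688 by DESeq2, 6 by limma-voom, 1324 with no filter, 9 with the filter of 5 CPM, 6 with B fitted alone, and 0 to 9 without 1 library. In T it was 0, 49 by DESeq2 and 254 with no filter, for the mean of B and T 0, 318 and 886, and for the difference 0, 227 and 784; without T wt 1 or T wt 2 the mean gave 2 and 5, and without T wt 1 the difference gave 4. For T against B, 5801 became 3840 without T wt 1, 3621 without T deltaPOZ 2 and 1312 without the 3 libraries.

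Genotype differences that turned sign without 1 library had these ranges: in T -2.63 to 0.01 (Ifi203), -1.87 to 0.16 (Mndal) and -0.09 to 1.5 (Ifi213); in B -1.14 to 1.70 (Ifi204), -0.18 to 2.12 (Ifi207), -0.30 to 2.26 (Ifi213) and -0.85 to 0.87 (Aim2); in the mean -0.11 to 1.31 (Ifi204) and -0.58 to 0.28 (Aim2). The difference between lineages, never called, ranged from -2.05 to 0.59 (Ifi203), -0.79 to 2.07 (Ifi204), -1.17 to 1.14 (Ifi207), -1.77 to 0.80 (Ifi213), -1.65 to 0.38 (Mndal) and -1.18 to 0.53 (Aim2). For Ifi204 it was also -0.02 with the filter of 10 counts and -1.15 without the 3 libraries. With plain library totals 3 of 28 group levels moved by more than 1 SD. No paired analysis was possible because the labels give no replicate numbers.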
